A study of Mus musculus with 8 samples.

Results

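The odorant receptor (OR) genes numbered Olfr763 to Olfr827 form the large OR gene cluster of mouse chromosome 10. The members were the transcript clusters that the platform annotation tied to a single gene symbol of this range, with pseudogene (-ps) symbols left out. A transcript cluster is a set of array probes that covers the exons of a gene, and the annotation ties some clusters to several genes. The rule gave 47 members, 1 cluster for each of 47 genes, out of 1023 OR clusters and 23410 clusters with a gene symbol. All 47 mapped to chromosome 10 through their Entrez IDs. The RefSeq annotation lists 56 protein-coding genes in the range. Of the remaining genes, 7 were found only in clusters shared by several symbols (Olfr773, Olfr777, Olfr782, Olfr800, Olfr819, Olfr823 and Olfr824), and 2 (Olfr785 and Olfr789) were in no named cluster.

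Olfactory mucosae came from 4 OmpCre:Lhx2(fl/fl) mice, called knockouts here, and 4 littermate controls, all at postnatal day 26 and on a mixed 129 x C57BL/6J background, and each mouse was measured on its own Affymetrix Mouse Gene 1.0 ST array. In the knockouts, Cre recombinase could delete the first exons of both Lhx2 alleles. Of the controls, 3 carried OmpCre and 1 floxed allele (OmpCre:Lhx2(fl/+)), and control replicate 1 carried 1 floxed allele and no Cre. Cre was driven by the Omp locus, used by olfactory sensory neurons (OSNs) once they are mature, and its recombination of Lhx2 was incomplete in these mice. Values are log2 signals, so a log2 difference of -1 means that the signal was halved. Mice were compared in limma, a linear model fitted to each of the 23410 named clusters, and a member was called lower or higher at an adjusted p under 0.05. The signals of different clusters depend on their probes and are not compared as mRNA levels.

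Each OSN transcribes 1 allele of 1 OR gene, and the receptor sets which odorants the neuron answers to and where its axon ends in the olfactory bulb. OR genes lie in clusters on many chromosomes and are silenced in heterochromatin until 1 is chosen. Those of chromosome 10 are class II ORs, the receptors of the kind that expanded in land vertebrates, each of which signals through the olfactory G protein and adenylyl cyclase. Lhx2, a transcription factor with LIM domains and a homeodomain, is made in OSNs and their progenitors, and homeodomain sites are found in front of many OR genes and in OR enhancers. The study asked whether OR mRNAs still depend on Lhx2 once OSNs have matured.

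RefSeq windows of 300 bases around the annotated gene start (250 bases before it and 50 after it, assembly GRCm38.p6) were available for 39 of the 47 members, 18 on the plus strand and 21 on the minus strand. In 38 of these windows, Olfr772 being the exception, the start codon ATG began exactly at the annotated start, so they show the sequence around the start of the coding region. OR transcripts usually begin in separate upstream exons, so the windows should not be read as promoters. Of 828 windows of other ORs, 590 had ATG at that place. Windows are shown for the 2 members with the largest decrease (Olfr788 and Olfr813), for the 2 members that changed least (Olfr765 and Olfr767), whose windows are 91.8% identical, and for a pair with several homeodomain motifs and windows that are 87.5% identical (Olfr792 and Olfr798). Each runs 5′ to 3′ on the strand of its gene. Capitals mark the start codon ATG at the annotated start and 3 homeodomain motifs on either strand, namely TAATTA, its variant TAATGA and its variant TAATTG.
Olfr788 (chr10:129472444-129472743, plus strand): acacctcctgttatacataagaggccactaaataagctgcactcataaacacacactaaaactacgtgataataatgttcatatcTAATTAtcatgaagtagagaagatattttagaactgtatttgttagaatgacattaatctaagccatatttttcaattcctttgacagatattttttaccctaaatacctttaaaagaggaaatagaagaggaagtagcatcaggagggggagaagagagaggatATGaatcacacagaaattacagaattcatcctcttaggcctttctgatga
Olfr813 (chr10:129856270-129856569, plus strand): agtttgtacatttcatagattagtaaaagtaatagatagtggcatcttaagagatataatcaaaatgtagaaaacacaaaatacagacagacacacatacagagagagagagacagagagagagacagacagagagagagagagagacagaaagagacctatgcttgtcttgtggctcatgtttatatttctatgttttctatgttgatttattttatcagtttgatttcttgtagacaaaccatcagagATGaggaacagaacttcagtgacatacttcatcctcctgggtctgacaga
Olfr765 (chr10:129047012-129047311, minus strand): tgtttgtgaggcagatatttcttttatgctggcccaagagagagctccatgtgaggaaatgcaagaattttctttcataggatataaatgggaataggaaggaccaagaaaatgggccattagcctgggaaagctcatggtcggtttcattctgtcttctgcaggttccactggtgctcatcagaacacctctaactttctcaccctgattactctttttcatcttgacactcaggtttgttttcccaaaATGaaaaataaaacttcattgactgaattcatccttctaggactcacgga
Olfr767 (chr10:129079912-129080211, minus strand): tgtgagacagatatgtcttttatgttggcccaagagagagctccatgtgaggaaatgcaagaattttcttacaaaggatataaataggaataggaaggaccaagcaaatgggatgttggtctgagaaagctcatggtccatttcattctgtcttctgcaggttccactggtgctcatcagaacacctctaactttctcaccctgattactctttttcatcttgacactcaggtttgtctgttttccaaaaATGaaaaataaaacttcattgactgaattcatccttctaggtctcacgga
Olfr792 (chr10:129540289-129540588, plus strand): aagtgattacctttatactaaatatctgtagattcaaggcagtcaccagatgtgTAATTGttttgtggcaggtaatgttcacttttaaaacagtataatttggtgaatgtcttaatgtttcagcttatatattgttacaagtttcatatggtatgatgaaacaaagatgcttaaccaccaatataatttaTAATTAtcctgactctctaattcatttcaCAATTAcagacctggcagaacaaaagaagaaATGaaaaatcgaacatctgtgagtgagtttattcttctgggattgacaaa
Olfr798 (chr10:129626010-129626309, minus strand): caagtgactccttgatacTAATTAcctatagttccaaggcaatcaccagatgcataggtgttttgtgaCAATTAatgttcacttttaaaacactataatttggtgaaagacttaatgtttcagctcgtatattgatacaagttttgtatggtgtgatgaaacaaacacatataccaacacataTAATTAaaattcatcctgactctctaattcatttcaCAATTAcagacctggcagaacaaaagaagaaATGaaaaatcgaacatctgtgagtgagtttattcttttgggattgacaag

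At least 1 of the 3 homeodomain motifs was present in 28 of the 39 member windows (71.8%), against 53.1% of the windows of other ORs and 19.9% of all 32851 windows. The member windows were rich in A and T, with a median GC content of 32%, against 52.67% over all windows. An AT-rich motif is met more often in such sequence. The GC content of the other OR windows alone is not given here, and the part of base composition in these percentages was not tested. TAATTA was found in 20.5% of member windows, 18.4% of other OR windows and 5.29% of all windows. TAATGA was found in 25.6%, 29% and 9.78% of the same sets, and TAATTG in 38.5%, 23.3% and 8%. TAATTA reads the same on both strands, and the motifs can overlap each other by their shared letters. CCCNNGGG, the core of the motif bound by O/E (EBF) factors, was in none of the 39 member windows, 3.14% of other OR windows and 13.7% of all windows. The Olfr788 window held 1 motif, TAATTA, and the Olfr813, Olfr765 and Olfr767 windows held none. The median log2 change was -1.03 for the 28 members with a motif and -1.07 for the 11 without, and these are descriptions of letters in a window, not of binding sites.

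OR mRNAs of the cluster were less abundant in the knockouts along nearly its whole length. All 47 members had a lower mean in knockouts than in controls (6 of these signs turned when arrays were scaled to 16 markers of mature OSNs, and 4 when the marker Cnga4 was left out). Of the 47, 40 (85.1%) were called lower and 0 were called higher. The median log2 change was -1.04 (interquartile range -1.30 to -0.77), so the median member had 48.7% of its control signal. In 44 members all 4 knockouts lay below all 4 controls. Of all named clusters, 6.29% were called lower, 2.1% were called higher and 7.83% had all knockouts below all controls, with a median change of 0.05. In limma 0 of 47 members were higher at an unadjusted p under 0.05, against 4 of 976 other ORs and 2176 of 23410 named clusters. The methods' t-test, run here on the deposited values without the study's scaling to mature OSN mRNAs, also gave 0 members higher. For that count the share over all named clusters is not given here. At the threshold stated in the methods (p under 0.01 with a false discovery rate under 1%), that test called 23 members lower. It called 459 of the 976 other ORs and 3.38% of all named clusters lower at that threshold. After Benjamini-Hochberg adjustment at 0.05 it called 33 members lower, for which the share over all named clusters is not given here. On arrays of whole mucosa, fewer neurons that express a receptor and less receptor mRNA per neuron cannot be told apart. By in situ hybridization in this strain, the paper reports fewer labelled OSNs for decreased ORs that it tested, none of them members.

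**Figure D1:**
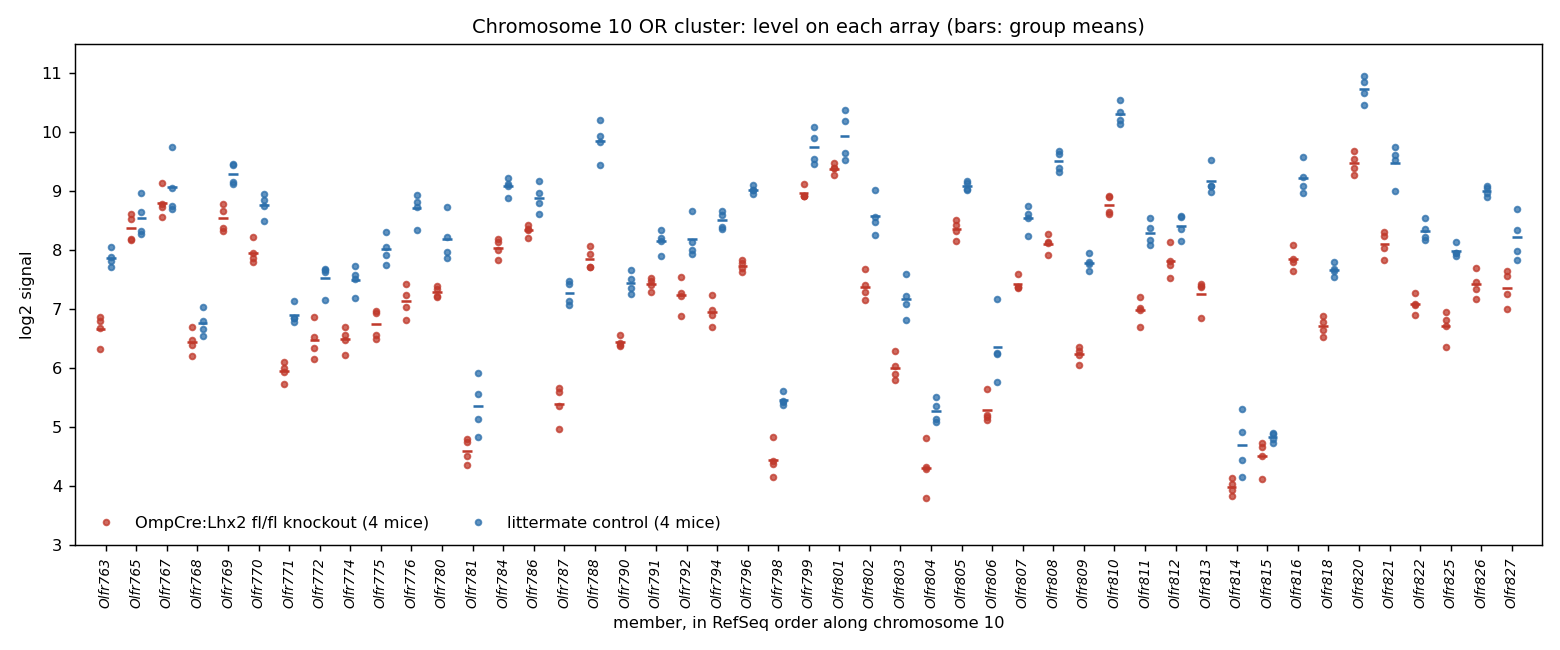
Log2 signal (y axis) of the 47 members in RefSeq order along chromosome 10 (x axis), with 1 point per mouse, knockouts in red to the left of controls in blue, and horizontal bars at the group means. All 4 knockout points lie below all 4 control points in every member but Olfr765, Olfr767 and Olfr768.

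The decrease was seen in each mouse. The mean over the 47 members was 7.16, 7.12, 7.09 and 6.96 in knockout replicates 1 to 4, against 8.15, 8.01, 8.15 and 8.27 in control replicates 1 to 4. These means were 7.08 ± 0.09 in knockouts and 8.15 ± 0.11 in controls (SD, n = 4 each), a difference of -1.06, and the groups did not overlap. The control without Cre, replicate 1, lay within the range of the other 3 controls. Mouse numbers in the sample titles begin with 5 (2 knockouts and 2 controls), 7 (1 and 1) or 9 (1 and 1), a possible batch whose nature the labels do not give. The difference in the mean was -0.94 in series 5, -1.05 in series 7 and -1.31 in series 9. Within the groups, knockout replicate 4 was the lowest of the 4 knockouts in 22 members, and control replicate 4 was the highest of the 4 controls in 22 members. Control replicate 2 was the lowest of the controls in 25 members. Without knockout replicate 4 the median change was -1.0035, without control replicate 4 it was -1.02, and without control replicate 2 it was -1.05.

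Olfr788 (transcript cluster 10367499) had the largest decrease. It measured 7.95, 8.07, 7.72 and 7.71 in knockouts, against 10.21, 9.83, 9.45 and 9.93 in controls, a log2 change of -1.99 ± 0.15 (SE; limma adjusted p = 1.31e-05), which leaves 25.1% of the control signal. The lowest control was still above the highest knockout by more than the whole range of the knockouts. Olfr813 (10367524) measured 7.39, 7.38, 7.44 and 6.86 in knockouts, against 9.09, 8.98, 9.09 and 9.52 in controls, a change of -1.91 ± 0.15 (adjusted p = 1.99e-05). Its widest difference came from series 9 (-2.67), and series 5 and 7 gave -1.65 each. Series 9 holds both the lowest knockout (replicate 4, 6.86) and the highest control (replicate 4, 9.52). Olfr787, which lies next to Olfr788 among the members, measured 5.67, 5.60, 5.37 and 4.97 in knockouts, against 7.43, 7.48, 7.08 and 7.14 in controls, a change of -1.88 ± 0.16 (adjusted p = 2.6e-05). These 3 members were lower in knockouts by 3.69- to 3.98-fold, without overlap between the groups.

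The next 5 members had log2 changes of -1.58 to -1.54, with 33.4% to 34.4% of the control signal left. Olfr826, near the far end of the cluster, measured 7.35, 7.47, 7.70 and 7.17 in knockouts, against 9.06, 8.97, 8.90 and 9.09 in controls (-1.58 ± 0.11, adjusted p = 6.62e-06). Olfr776 measured 7.43, 7.25, 6.83 and 7.04 in knockouts, against 8.82, 8.93, 8.74 and 8.35 in controls (-1.57 ± 0.15, adjusted p = 7.01e-05). In both, each group spanned less than 0.7 and the gap between the groups was wider than either span. Olfr794 measured 7.25, 6.98, 6.90 and 6.70 in knockouts, against 8.40, 8.37, 8.60 and 8.68 in controls (-1.55 ± 0.12, adjusted p = 1.45e-05). Olfr809 measured 6.29, 6.36, 6.23 and 6.06 in knockouts, against 7.81, 7.77, 7.64 and 7.95 in controls (-1.56 ± 0.09, adjusted p = 2.87e-06). Its neighbour Olfr810 (10373642) measured 8.65, 8.90, 8.93 and 8.62 in knockouts, against 10.34, 10.14, 10.21 and 10.56 in controls (-1.54 ± 0.11, adjusted p = 9.39e-06). Olfr809 and Olfr810 thus stood side by side with nearly the same change at array signals far apart.

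Of the 6 members with the highest array signal in controls, 5 were called lower. Olfr788 and Olfr810, given above, were among them. Olfr820 (10367526), the brightest, measured 9.69, 9.55, 9.28 and 9.40 in knockouts, against 10.67, 10.46, 10.95 and 10.85 in controls (-1.25 ± 0.12, adjusted p = 6.89e-05), which leaves 41.9% of the control signal. Olfr808 measured 8.12, 8.13, 8.27 and 7.91 in knockouts, against 9.63, 9.39, 9.34 and 9.68 in controls (-1.40 ± 0.10, adjusted p = 1.13e-05). Knockouts and controls were well apart in both. Olfr799 measured 9.12, 8.92, 8.92 and 8.92 in knockouts, against 9.55, 9.46, 9.91 and 10.09 in controls (-0.78 ± 0.13, adjusted p = 0.00341). Olfr801 measured 9.39, 9.28, 9.48 and 9.40 in knockouts, against 9.65, 9.54, 10.37 and 10.20 in controls (-0.56 ± 0.17), and was not called (adjusted p = 0.0898). All 4 knockouts were below all 4 controls in Olfr801 too, but controls 3 and 4 were well above controls 1 and 2.

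The 7 members that were not called were of 3 kinds. Olfr765, Olfr767 and Olfr768, which follow each other near the Olfr763 end of the cluster, were the only members whose groups overlapped. Olfr765 (10373606) measured 8.54, 8.19, 8.18 and 8.61 in knockouts, against 8.66, 8.27, 8.32 and 8.97 in controls (-0.18 ± 0.16, adjusted p = 0.64). Olfr767 (10373610) measured 8.57, 8.74, 9.14 and 8.78 in knockouts, against 9.06, 8.71, 8.75 and 9.75 in controls (-0.26 ± 0.22, adjusted p = 0.602). Olfr767 was also the 1 member that was not lower in all 3 title series, with 0.39 in series 7, -0.23 in series 5 and -0.97 in series 9. Olfr768 measured 6.39, 6.21, 6.70 and 6.47 in knockouts, against 6.66, 6.54, 7.05 and 6.80 in controls (-0.32 ± 0.13, adjusted p = 0.209). Olfr768 differed by -0.30, -0.35 and -0.33 within series 5, 7 and 9, and was called once the series was a block (adjusted p = 0.0118). The windows of Olfr765 and Olfr767 shown above were 91.8% identical, the closest of 741 member pairs, and whether their probes read each other's mRNA was not tested.

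The second kind were dim clusters. Olfr781 measured 4.80, 4.36, 4.51 and 4.75 in knockouts, against 5.13, 4.83, 5.92 and 5.57 in controls (-0.76 ± 0.21, adjusted p = 0.0592). Olfr814 measured 4.04, 4.14, 3.84 and 3.94 in knockouts, against 5.31, 4.92, 4.15 and 4.44 in controls (-0.71 ± 0.21, adjusted p = 0.0813). Olfr815, its neighbour, measured 4.12, 4.67, 4.73 and 4.51 in knockouts, against 4.90, 4.80, 4.73 and 4.88 in controls (-0.32 ± 0.12, adjusted p = 0.181). In these 3 members the highest knockout was below the lowest control, by less than 0.05 in each, and the controls of Olfr781 and Olfr814 spanned more than 1. Only 2 other members, Olfr798 and Olfr804, had a control mean under 6, and both were called lower (-1.02 and -0.97). The third kind was Olfr801, a bright cluster with widely spread controls. When all 8 mice were fitted with title series as a block, Olfr781, Olfr814 and Olfr801 were called lower (adjusted p = 0.0376, 0.016 and 0.0226). Olfr781 and Olfr801 were also called without control replicate 2 (adjusted p = 0.0124 and 0.026), and Olfr814 without control replicate 3 (adjusted p = 0.0129).

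The other called members fell by intermediate amounts. Of the 47, 8 had log2 changes from -1.99 to -1.54, 19 from -1.40 to -1.004, 16 from -0.97 to -0.55 and 4 from -0.32 to -0.18. Thus 27 members had at most 50% of their control signal in knockouts. The smallest change of a called member was that of Olfr786, which measured 8.35, 8.21, 8.37 and 8.43 in knockouts, against 8.80, 8.61, 8.97 and 9.18 in controls (-0.55 ± 0.11, adjusted p = 0.0115). At the 2 ends of the number range, Olfr763 changed by -1.20 ± 0.12 (limma adjusted p = 9.84e-05) and Olfr827 by -0.85 ± 0.20 (adjusted p = 0.0231). The call of Olfr827 rested on single mice, since it was lost without knockout replicate 3 or 4 or control replicate 4 (adjusted p = 0.0594, 0.074 and 0.0642). Olfr806 and Olfr812 likewise lost their calls when single mice were left out.

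**Figure D2:**
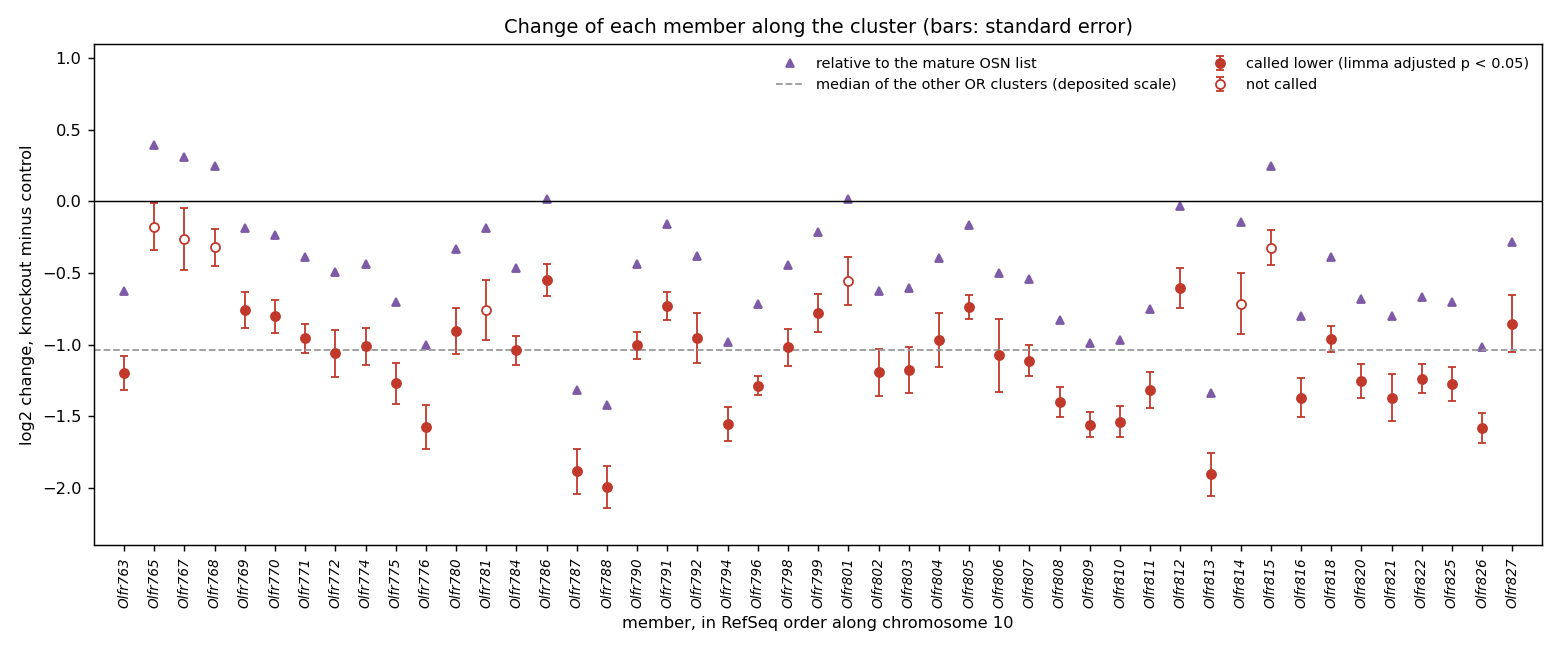
Log2 change, knockout minus control (y axis), of the 47 members in RefSeq order (x axis). Red points with standard error bars are the deposited scale, filled where called lower and open where not, purple triangles are the same changes after centring each array on the mature OSN list, and the dashed line is the median of the other ORs (-1.04). The smallest changes sit at Olfr765, Olfr767, Olfr768 and Olfr815, and the largest at Olfr787, Olfr788 and Olfr813.

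Position along the cluster went with modest differences. In the first 16 members in RefSeq order (Olfr763 to Olfr787), 12 were called lower with a median change of -0.93. In the next 16 (Olfr788 to Olfr808), 15 were called with a median of -1.05, and in the last 15 (Olfr809 to Olfr827), 13 were called with a median of -1.27. The order held in series 9 (-1.05, -1.25 and -1.63) and series 5 (-0.68, -1.04 and -1.11), but in series 7 the middle members had the smallest decrease (-1.10, -0.94 and -1.27). Over the 47 members, order and change had a Pearson r of -0.30 and a Spearman rho of -0.32, and the change of a member and that of the next one in order had an r of 0.24 over 46 neighbouring pairs. Control signal and change had an r of -0.28 over 47 members, and -0.13 over the 42 members with a control mean of at least 6. These points share the same 8 arrays and neighbouring members can share probes, so the values are descriptions across genes.

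Some members have similar windows. Of 741 pairs of members with a window, 4 pairs had windows at least 80% identical, and the median identity was 53.9%. The pairs were Olfr765 and Olfr767 (-0.18 and -0.26), Olfr792 and Olfr798 (-0.95 and -1.02), Olfr775 and Olfr776 (-1.27 and -1.57), and Olfr814 and Olfr815 (-0.71 and -0.32). The members of a pair differed by a median of 0.19, against 0.36 over the other pairs. In the order above the 4 differences were 0.08, 0.06, 0.31 and 0.39. Olfr814 and Olfr815, which differed most, were measured at the low end of the signal range. Olfr775 and Olfr776, with 0.31, had brighter control means of 8.02 and 8.71. The part of shared probes in these values was not tested.

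Genes of the range that share clusters also fell. All 11 clusters that the annotation ties to several symbols, at least 1 of them in the range, were lower in every knockout than in every control, and 9 of them were called, with a median change of -1.48. Some of them repeat the same values, so they are not 11 separate measurements. The cluster of Olfr823 and Olfr824 had 1 of the largest decreases, with -2.004 ± 0.13 (adjusted p = 5.72e-06), at 24.9% of the control signal. The clusters of Olfr819 with Olfr247 (-1.70 to -1.74), of Olfr777 with Olfr800 (-1.34 and -1.38) and of Olfr772 with Olfr773 (-1.08) were all called. The cluster of Olfr774, Olfr775, Olfr776 and Olfr787 changed by -1.48 ± 0.11, and the clusters of these 4 genes alone by -1.01, -1.27, -1.57 and -1.88. The cluster of Olfr782 and Olfr804 was the exception, with -0.40 ± 0.11 (adjusted p = 0.0545), whereas Olfr804 alone gave -0.97 ± 0.19 (adjusted p = 0.00831).

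The median decrease of the members was close to that of ORs elsewhere in the genome. Of the 976 other ORs, 813 (83.3%) were called lower, with a median change of -1.04 (interquartile range -1.43 to -0.66). The medians of the members and of the other ORs differed by 0.0016. The mean of the other ORs was 7.08 ± 0.07 in knockouts and 8.13 ± 0.06 in controls (SD, n = 4 each), and the difference between members and other ORs changed by -0.02 (0.07 in series 5, -0.10 in series 7 and -0.10 in series 9). Changes ran from -1.99 to -0.18 among the members and from -2.78 to 0.31 among the 976 others, of which 27 had a positive change. The percentage of members called lower was thus close to that of the other ORs and far above that of all named clusters.

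**Figure D3:**
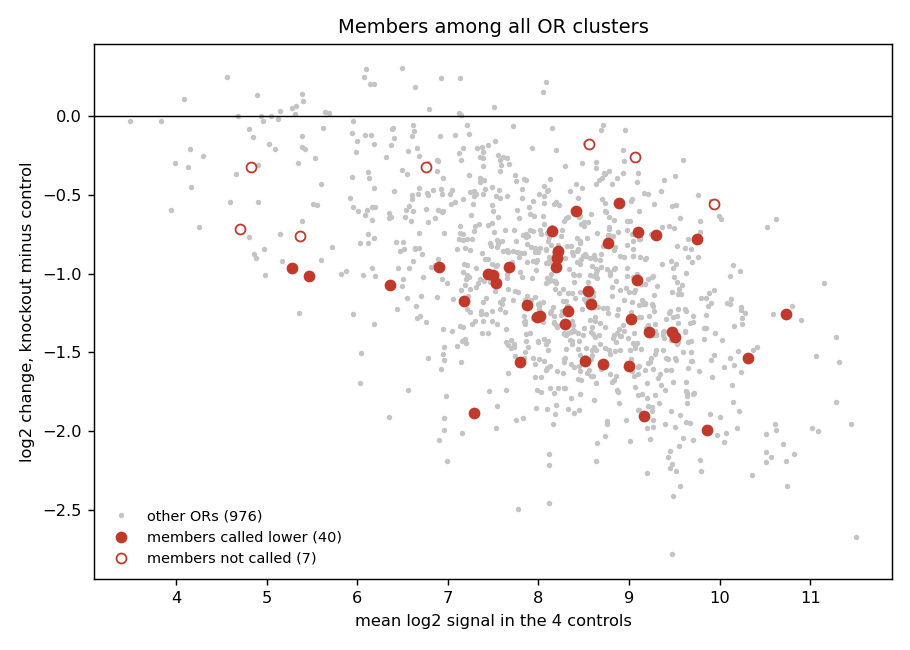
Log2 change, knockout minus control (y axis), against the mean log2 signal in the 4 controls (x axis), with members in red (filled where called lower, open where not) over the 976 other ORs in grey. Members lie within the spread of the other ORs, and 3 of the 7 open points lie under a control mean of 6.

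Other chemoreceptor genes of chromosome 10 outside the number range were also lower. ORs were set apart here by number, not by position, so an OR such as Olfr9 may lie close to the members. Of 9 other ORs of the chromosome, 8 were called lower, with a median of -1.14. Olfr9 fell by 0.86, Olfr1357 by 1.97, and Olfr1351 had -0.45 and was not called (adjusted p = 0.0668). Of the 13 clusters of trace amine-associated receptors (TAARs), a second family of olfactory receptors that lies on this chromosome, 11 were called lower with a median of -1.71. The TAAR range reached 0.20 for Taar1, the family member known for its role outside the nose.

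Genes that flank the cluster without coding for receptors did not pass the test. Bloc1s1, which codes for a subunit of a lysosome-related organelle complex, had 11.24, 11.29, 11.25 and 11.34 in knockouts, against 11.26, 11.31, 11.27 and 11.37 in controls (-0.02 ± 0.06, adjusted p = 0.897). Itga7, an integrin subunit of muscle, had a change of 0.15 ± 0.09 (adjusted p = 0.467), and Mettl7b, a methyltransferase-like protein, 0.07 ± 0.10 (adjusted p = 0.79). Neurod4, a neurogenic transcription factor, had 0.17 ± 0.08 (adjusted p = 0.276), and Tespa1, an adaptor of T cell development, 0.15 ± 0.08 (adjusted p = 0.405). Knockouts and controls overlapped in all 5 genes. ORs apart, these are the nearest named genes on either side of Olfr763 and Olfr827. The difference between receptor and flanking gene was not itself tested.

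Lhx2 itself measured 12.03, 11.99, 12.17 and 12.16 in knockouts, against 12.39, 12.33, 12.29 and 12.33 in controls (-0.25 ± 0.06, adjusted p = 0.0383). The groups did not overlap, in the direction that the labels give, and its cluster covers exons that are not floxed as well. Omp, which marks mature OSNs and whose locus carries the Cre gene, measured 12.88, 12.80, 12.37 and 12.43 in knockouts, against 13.78, 13.56, 13.22 and 13.27 in controls (-0.84 ± 0.15, adjusted p = 0.00568). Of 22 genes listed for OR gene choice and transcription, 6 were called lower and 0 higher, with a median of -0.04 (0.05 over all named clusters, of which 6.29% were lower). Rtp1, Rtp2 and Adcy3 are also in the list of mature OSN markers below, and 3 of the other 19 genes were called lower. Lhx2, the gene that the genotype itself deletes, is among these 3. The 6 were Lhx2, the O/E factor Ebf3 (-0.22), Atf5 (-0.43), a transcription factor of the feedback that ends OR choice, the OR trafficking proteins Rtp1 (-0.33) and Rtp2 (-0.42), and the adenylyl cyclase Adcy3 (-0.98). The Lhx2 cofactor Ldb1 (-0.11, adjusted p = 0.316) and the histone demethylase Kdm1a (0.11, adjusted p = 0.381), which opens OR genes, did not pass the test.

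Markers of mature OSNs moved with the members. Of 16 measured genes of the mature OSN list, 14 were called lower and 0 higher, with a median of -0.46. The mean over the list was 11.71 to 11.80 in knockouts and 12.30 to 12.35 in controls, a difference of -0.57. On average the members fell by more than this list. Their mean minus that of the list differed by -0.49 between knockouts and controls (-0.39, -0.46 and -0.73 in series 5, 7 and 9). This holds for the means and not for each marker, since changes within the list ran from -2.02 (Cnga4) to -0.0976 (Reep1). Control means ran from 10.46 to 14.02 for the markers and from 4.71 to 10.73 for the members. Whether signal level affected the size of these changes was not tested. Among the markers of other cells, 1 was called lower (Stmn4) and 1 higher (Tubb3) of 12 for immature OSNs, 1 lower (Foxj1) of 7 for respiratory epithelium and glands, and 0 of 8 for basal cells, 0 of 8 for sustentacular cells, 0 of 7 for macrophages and 0 of 3 for blood, of which Hba-a1, Hbb-b1 and Hbb-bs were not measured. The part of a change in the number of mature OSNs in the members' decrease was not tested.

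Relative to the mature OSN list, fewer members passed the test. When each array was centred on the mean of the 16 genes, 28 of 47 members were called lower, 1 was called higher and 18 were not called, with a median change of -0.47. The list mean was moved by Cnga4, an olfactory channel subunit with a change of -2.02. With Cnga4 left out of the centring, a choice made after seeing the data, the list mean changed by -0.47, 37 members and 3.87% of all named clusters were called lower, and the median change of the members was -0.56. The much longer list of mature OSN mRNAs to which the study scaled its values was not used here, so neither centring stands for the study's own. Over that longer list the paper reports a smaller average decrease in these knockouts than either list mean here. With all 16 genes, 3.38% of all named clusters were called lower and 93% higher, with a median of 0.62 over all named clusters. Olfr788 changed by -1.42, Olfr813 by -1.34 and Olfr787 by -1.31 relative to the list. Olfr765 was the member called higher, by 0.39 (adjusted p = 0.0341), but had 0.30 and was not called with Cnga4 left out (adjusted p = 0.0969), while Olfr767 had 0.31 (adjusted p = 0.199) and Olfr768 0.25 (adjusted p = 0.104). The members and the other ORs again had like medians, both -0.47.

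**Figure D4:**
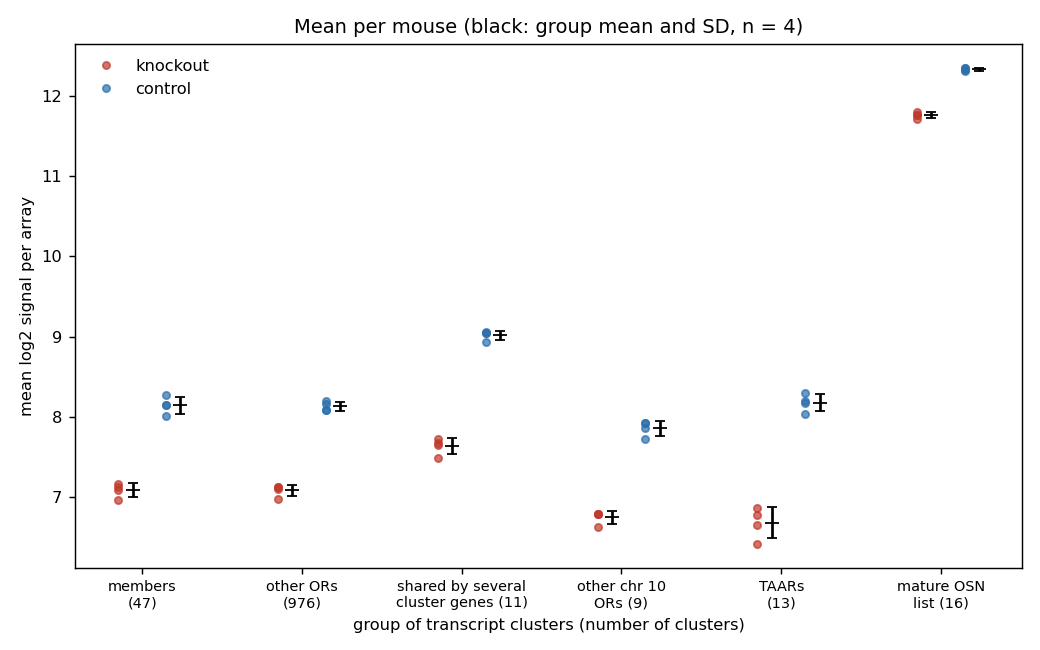
Mean log2 signal per array (y axis) for 6 groups of transcript clusters (x axis), with 1 point per mouse, knockouts in red to the left of controls in blue, and black marks for the group mean and SD (n = 4). Members have means of 6.96 to 7.16 in knockouts and 8.01 to 8.27 in controls, and the groups of mice are apart in all 6 sets. Levels of different sets are not compared.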

How the data were processed

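Olfactory mucosae of 4 knockout and 4 control mice were measured on 1 array each, and groups were taken from the genotype in the labels. The values are deposited log2 expression values, 1 per transcript cluster, made by the authors in Affymetrix Expression Console (its version and summarisation settings not given in the sources used here). They were used as deposited. Array medians ran from 8.44 to 8.57. Arrays give no counts, so their number limits the precision. Of 35557 clusters, the 23410 with a gene symbol were fitted in limma 3.58.1 (lmFit and eBayes, R 4.3.3, no covariate) with Benjamini-Hochberg adjustment, and ± after a log2 change is a standard error. The script was tested on simulated data. Closely related receptors can share probes. The members and lists were chosen with earlier results of these data known.

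Values per mouse are given for the 8 called members with the largest decrease, the 6 with the highest control mean and the 7 not called, and for Olfr786, chosen after its value was seen. Alternatives were array-median, quantile and mature OSN scaling (with Cnga4 left out added after seeing the data), title series as a block, array weights, a minimum mean of 5, all clusters, the methods' t-test and leaving out each mouse. The labels do not give the litter of each mouse. Replicate numbers follow the order of deposition and pair no mice. Window identity was computed with Biopython 1.88, and figures were drawn with matplotlib 3.10.9.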

Additional observations from a re-analysis of the deposited data

Results flagged for a closer look

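Single mice stood far from the other 3 of their group in 5 members. Of the 94 groups of 4 arrays checked (47 members, knockouts and controls), chance flags about 1 in 20, a rate close to the 5 flagged here. Olfr772 measured 7.15 in control replicate 2 and 7.64 to 7.69 in the other controls. Olfr799 measured 9.12 in knockout replicate 1 and 8.92 in the other knockouts. Olfr806 measured 5.64 in knockout replicate 2 and 5.13 to 5.20 in the others. Olfr807 measured 7.60 in knockout replicate 3 and 7.35 to 7.38 in the others. Olfr813 measured 6.86 in knockout replicate 4 and 7.38 to 7.44 in the others. In each of the 5 members the groups stayed apart.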

How the results depend on the processing

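The count of members called lower was 40. It was 40 after centring on the array median, 41 after quantile normalization, 44 with the title series as a block, 40 with array weights, 38 among clusters with a mean of at least 5, 37 over all clusters of the table, 33 by the methods' t-test and 37 to 42 when 1 mouse was left out. The filter at a mean of 5 left out Olfr798 and Olfr804, which were called in the main fit, and no member that it kept lost the call. Shares of all named clusters called lower are given only for the main fit, the mature OSN centrings and the stricter t-test threshold. For the other settings, whether the count of members moved with that share cannot be seen here. The median log2 change was -1.0894 to -1.0035 when 1 mouse was left out. Centring on the mature OSN list changed most: 28 members were called lower, the members called higher became 1, and the median became -0.47. On that scale the sign turned for Olfr765 (0.39), Olfr767 (0.31), Olfr768 (0.25), Olfr786 (0.0203), Olfr801 (0.0155) and Olfr815 (0.25). With Cnga4 left out of that list, an alternative chosen after seeing the data, 37 members were called lower, the median was -0.5648, and the sign turned for Olfr765 (0.2968), Olfr767 (0.2131), Olfr768 (0.1539) and Olfr815 (0.1500).

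In every setting in which they were tested, 28 members were called lower. When 1 mouse was left out, 3 members lost the call: Olfr812 without any 1 of knockout replicates 1, 2 and 4 or control replicates 3 and 4, Olfr806 without knockout replicate 1, 3 or 4 or control replicate 4, and Olfr827 without knockout replicate 3 or 4 or control replicate 4. Olfr781 and Olfr801 gained it without control replicate 2, and Olfr814 without control replicate 3. With 4 mice a group and shared probes between close relatives, single receptors with small changes are the least certain, and arrays give only relative signals.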
